A study of Mus musculus with 9 samples.

Results

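Genes that let a cell show peptides to T cells were followed in maturing red cell precursors of mice on a low iron diet. The set holds 10 genes. Of these, 6 belong to the MHC class I pathway (B2m, H2-K1, H2-D1, Tap1, Tap2 and Tapbp) and 4 to the MHC class II pathway (Cd74, H2-Aa, H2-Ab1 and H2-Eb1). Members were taken by name, and no measured value entered the rule: every non-control probe whose RefSeq accession maps to one of the 10 symbols was kept. This gave 12 of the 55681 probes on the array, and 10 of the 20018 genes that could be named. All 12 probes were well above background on all 9 arrays, so no member was lost to the filter on dim probes. H2-K1 and H2-Ab1 each have 2 probes, and the brighter one stands for the gene.

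Each array took RNA from erythroblasts, the nucleated precursors of red cells, sorted from mouse bone marrow as a population named subset II. There were 3 groups of 3 arrays: low iron diet for 3 weeks from weaning, low iron diet for 7 weeks from weaning, and normal diet. All mice were wild type, of strain C57BL/6J and labelled female, and no group carried an allele or agent other than the diet. The design text calls the samples biological replicates. The number of animals behind an array and the ages of the mice, those on normal diet included, are not given in the sources used here. A gene's level below is its log2 intensity minus the 75th percentile of the same array, so that 0 means as bright as that percentile. Levels are compared between groups for 1 probe at a time. The summed levels of marker lists add different probes, so brighter probes weigh more in them. Fold changes come from limma, fitted over all 9 arrays with Benjamini-Hochberg adjustment over 14504 tested genes, and a gene is said to have risen or fallen when its adjusted p was under 0.05.

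MHC class I molecules sit on nearly all nucleated cells and display peptides cut from proteins made inside the cell. A heavy chain (H2-K1, H2-D1) pairs with the light chain beta-2-microglobulin (B2m), the transporter formed by Tap1 and Tap2 pumps peptides into the endoplasmic reticulum, and tapasin (Tapbp) holds the empty molecule at the transporter until a peptide is bound. MHC class II molecules are an alpha and a beta chain (H2-Aa with H2-Ab1, and H2-Eb1 as the beta chain of the other pair), guided to endosomes by the invariant chain Cd74, and are found mainly on B cells, dendritic cells and macrophages. Red cell precursors, which have a nucleus, carry class I molecules. Erythroblasts are not classed with the professional antigen-presenting cells that carry class II.

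The arrays differed between groups in ways that bear on every comparison below. Of the spots of an array, 56.8% to 70.8% were well above background at 3 weeks, 45.2% to 53.6% at 7 weeks and 65.5% to 66.3% on normal diet. The 75th percentile of intensity was 1677 to 1837 at 3 weeks, 791.7 to 1087 at 7 weeks and 1499 to 1616 on normal diet, and spike-in controls averaged a log2 level of 1.06 to 1.53, 4.44 to 5.35 and 0.47 to 1.73 in the same order. No slide or scan held arrays of more than 1 group, and slide therefore cannot be told apart from group. Normal diet replicates 1 and 2 went against their female label: Y-linked Eif2s3y had levels of 5.12 and 4.82 there, against -3.77 on replicate 3 and between -6.61 and -3.98 on the low iron arrays. All 11 tested erythroid markers, Klf1 and Alas2 among them, were well above background on all 9 arrays.

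Promoters are shown for 4 members that differ in their course over the diet: H2-Aa and H2-Eb1 of class II, Tap1 of the transporter and H2-D1 of the class I heavy chains. Each line holds the 250 bases before the annotated start of transcription, 5′ to 3′ on the gene's strand, from RefSeq (GRCm38.p6): H2-Aa at chr17:34287824-34288073 on the minus strand, H2-Eb1 at chr17:34305617-34305866 on the plus strand, Tap1 at chr17:34187306-34187555 on the plus strand and H2-D1 at chr17:35262844-35263093 on the plus strand. Capitals mark matches, on either strand, to GATTGG (letters of the Y box, a binding site of the factor NF-Y) and TGACG (letters of the core of the X2 box, bound by CREB family factors).
H2-Aa: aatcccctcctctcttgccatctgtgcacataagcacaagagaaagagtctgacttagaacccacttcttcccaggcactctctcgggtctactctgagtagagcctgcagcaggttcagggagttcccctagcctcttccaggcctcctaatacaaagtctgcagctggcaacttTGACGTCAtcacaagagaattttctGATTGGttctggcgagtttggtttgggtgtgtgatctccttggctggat
H2-Eb1: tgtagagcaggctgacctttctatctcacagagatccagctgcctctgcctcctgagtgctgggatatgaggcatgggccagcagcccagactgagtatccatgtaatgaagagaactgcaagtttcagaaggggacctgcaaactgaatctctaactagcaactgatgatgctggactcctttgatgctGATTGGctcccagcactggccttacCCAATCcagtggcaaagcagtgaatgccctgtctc
Tap1: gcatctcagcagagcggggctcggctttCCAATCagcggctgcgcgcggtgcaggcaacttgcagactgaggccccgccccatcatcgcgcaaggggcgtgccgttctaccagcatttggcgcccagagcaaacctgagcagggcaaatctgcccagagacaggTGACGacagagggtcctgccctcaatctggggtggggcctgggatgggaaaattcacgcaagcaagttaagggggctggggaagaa
H2-D1: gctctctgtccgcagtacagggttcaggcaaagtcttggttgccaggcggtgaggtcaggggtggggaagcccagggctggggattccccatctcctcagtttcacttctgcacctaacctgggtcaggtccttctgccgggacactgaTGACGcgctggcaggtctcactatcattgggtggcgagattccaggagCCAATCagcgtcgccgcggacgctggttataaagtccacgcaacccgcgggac
These letters were searched after the sequences had been read, and a match describes the window and is not a test of binding. Whether a match is the Y box or X2 box of its promoter was not tested. In the H2-Aa window GATTGG lies 49 to 44 bases before the start, and TGACG matches overlap at 74 to 70 and, on the other strand, 71 to 67 bases before it. H2-Eb1 has GATTGG at 60 to 55 and, on the other strand, at 35 to 30 bases before the start, and no TGACG. Tap1 has GATTGG at 222 to 217 bases before the start, on the other strand, and TGACG at 86 to 82. H2-D1 has TGACG at 101 to 97 and GATTGG on the other strand at 53 to 48 bases before the start. The RefSeq windows searched were those of 7 of the 10 members, 8 windows in all because H2-K1 has 2 starts whose windows largely overlap. Cd74, Tap2 and H2-Ab1 were not among them. GATTGG was in 6 of the 8 windows and in 14.6% of all 32851 promoter windows of this length, and TGACG in 6 of 8 and 17.8%. The TGACG matches of H2-Aa were the only ones to overlap in these windows.

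After 3 weeks of low iron diet all 4 class II genes lay above normal diet with no overlap between the groups, and 2 of them, H2-Aa and Cd74, rose past the threshold. None of the 6 class I genes passed at 3 weeks, with 4 fold changes above 0 and 2 below. After 7 weeks H2-Aa was the only member of the 10 that passed against normal diet, again higher. No class I gene passed there. All 6 class I fold changes were below 0, as were those of 8522 of the 14504 tested genes. At 3 weeks 6068 of the 14504 were above 0. Between the 2 diet times, 1 class I gene (Tap1) and 1 class II gene (H2-Aa) were lower at 7 weeks than at 3 weeks. Of all tested genes, 11.4% passed at 3 weeks against normal diet (3.52% higher and 7.88% lower), 29.5% at 7 weeks against normal diet (10.7% higher and 18.7% lower) and 37.2% at 7 weeks against 3 weeks (17.5% higher and 19.6% lower). The members' 2 of 10 at 3 weeks lay above the share for all genes, and their 1 of 10 at 7 weeks and 2 of 10 between the times lay below it. The class II count at 3 weeks, 2 of 4 higher, is set against 3.52%, and no test of the list was made.

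The median log2 fold change at 3 weeks was 0.51 over the class I members and 1.56 over the class II members, beside -0.17 over all tested genes. The medians at 7 weeks against normal diet were -0.53 for class I and 0.87 for class II, beside -0.27 for all genes. Between 7 and 3 weeks they were -1.18 for class I and -0.73 for class II, beside -0.13. The 2 classes thus lay on opposite sides of 0 at 7 weeks against normal diet, a description that was not tested. Without scaling between arrays the median of all genes moved to -0.01, -1.07 and -1.09 in these 3 comparisons. Relative to the median of all genes, class II stood at 1.74, 1.14 and -0.60 and class I at 0.68, -0.27 and -1.05. Leaving out the scaling cannot change these values, since it shifts all genes of an array by the same amount. With normexp background correction class II stood at 1.73, 0.91 and -0.77 and class I at 0.60, -0.52 and -1.33. Both comparisons with normal diet use the same 3 normal diet arrays.

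**Figure D1:**
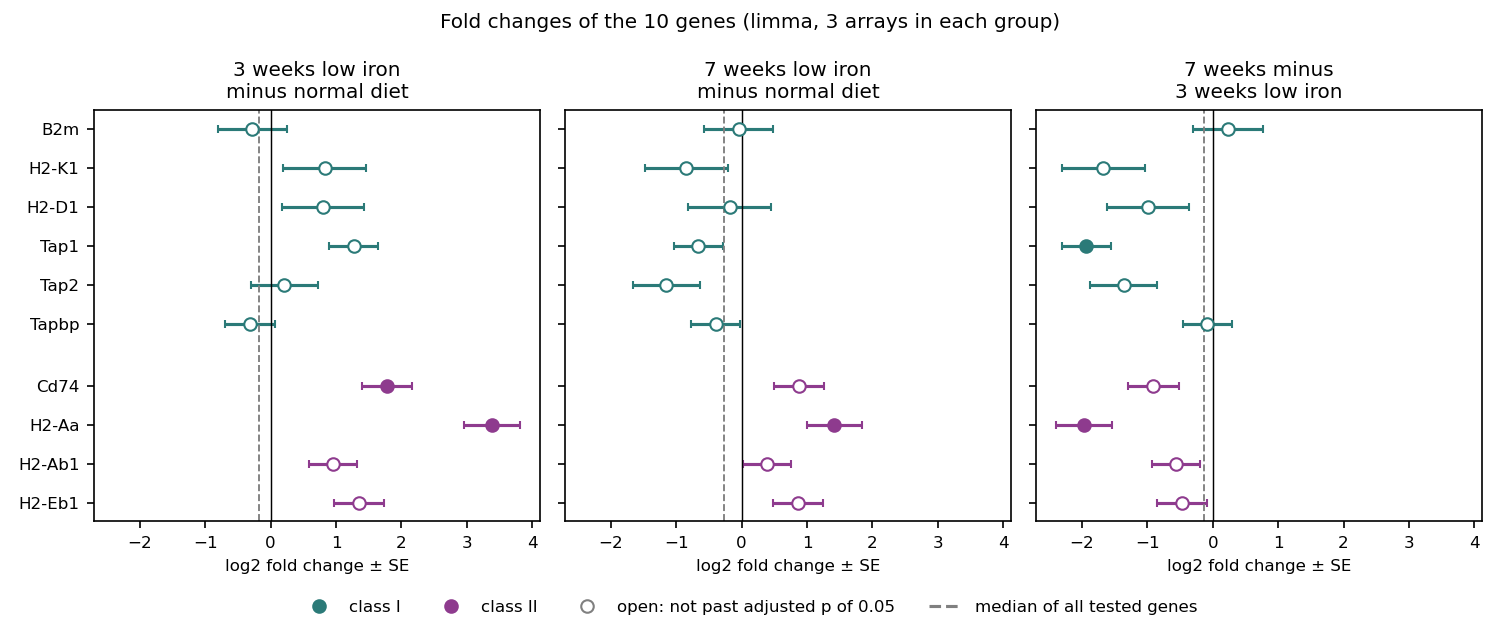
Log2 fold changes with standard errors (x axis) of the 10 genes (y axis) in the 3 comparisons, from limma with 3 arrays in each group; filled points passed an adjusted p of 0.05 and the dashed line is the median of all tested genes. The class II genes lie to the right of 0 in both comparisons with normal diet, while the class I genes scatter around 0 at 3 weeks and lie between -1.15 and -0.05 at 7 weeks.

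H2-Aa, the alpha chain of the class II molecule I-A, had levels of 1.69, 2.48 and 1.30 at 3 weeks, -0.17, 0.46 and -0.72 at 7 weeks and -1.89, -1.74 and -1.05 on normal diet. The 3 groups did not overlap at all, with 3 weeks highest, 7 weeks between and normal diet lowest. It rose 10.4-fold at 3 weeks (log2 3.38 ± 0.42 SE, adjusted p = 0.00794), which placed it above 99.8% of tested genes in that comparison. At 7 weeks it was 2.67-fold above normal diet (1.42 ± 0.42, adjusted p = 0.0349) and 3.90-fold below 3 weeks (-1.97 ± 0.42, adjusted p = 0.00709). The rise at 3 weeks passed when any single array was left out, but not against normal diet replicate 3 alone (2.87, adjusted p = 0.257), where 0 genes were called by limma and 1587 had an unadjusted p under 0.05. The rise at 7 weeks did not pass without 3 week replicate 1, 7 week replicate 2, normal diet replicate 1 or normal diet replicate 2 (adjusted p = 0.0536, 0.0888, 0.123 and 0.0921), nor without scaling between arrays (0.61, adjusted p = 0.22), with quantile normalization (1.35, adjusted p = 0.053), with only the 2 groups compared (adjusted p = 0.055) or against normal diet replicate 3 alone (0.91, adjusted p = 0.449).

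Cd74, the invariant chain, had levels of 0.54, 1.64 and 0.60 at 3 weeks, -0.06, 0.56 and -0.42 at 7 weeks and -1.12, -0.74 and -0.71 on normal diet. Every low iron array was above every normal diet array, while 3 weeks and 7 weeks overlapped through 7 week replicate 2. It rose 3.44-fold at 3 weeks (1.78 ± 0.38, adjusted p = 0.0236). At 7 weeks the difference of 0.88 ± 0.38 from normal diet did not pass (adjusted p = 0.111), nor did the difference of -0.91 ± 0.38 from 3 weeks (adjusted p = 0.0912). The call at 3 weeks was lost without 3 week replicate 1 or 2 or any 1 of normal diet replicates 1, 2 and 3 (adjusted p = 0.0539, 0.0781, 0.0834, 0.0756 and 0.0721), where the value stayed between 1.43 and 1.98. Against normal diet replicate 3 alone it was 1.64 (adjusted p = 0.42).

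H2-Ab1, the beta chain that pairs with H2-Aa, had levels of 3.87, 4.43 and 3.71 at 3 weeks, 3.42, 4.08 and 2.84 at 7 weeks and 2.75, 3.32 and 3.09 on normal diet. The 3 week arrays lay above normal diet without overlap, and the 7 week arrays spanned both. Neither the 3 week difference (0.95 ± 0.37, adjusted p = 0.124) nor the 7 week difference (0.39 ± 0.37, adjusted p = 0.44) passed. Its other probe read 1.05 at 3 weeks and 0.59 at 7 weeks, close to the first. The fold change of this partner of H2-Aa was smaller on this array than that of H2-Aa itself, a difference between probes that was not tested.

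H2-Eb1, the beta chain of the other class II molecule, I-E, had levels of 3.09, 4.08 and 3.20 at 3 weeks, 2.86, 3.54 and 2.54 at 7 weeks and 1.75, 2.43 and 2.16 on normal diet. All 6 low iron arrays were above all 3 normal diet arrays. The 3 week difference of 1.35 ± 0.38 (2.54-fold) missed the threshold (adjusted p = 0.0524), and passed without any 1 of the 7 week arrays (adjusted p = 0.0351, 0.038 and 0.0495). The 7 week difference was 0.87 ± 0.38 (adjusted p = 0.114). C57BL/6 mice are known to carry a defect in the I-E alpha chain gene and make no I-E protein at the surface, although the beta chain gene is transcribed.

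**Figure D2:**
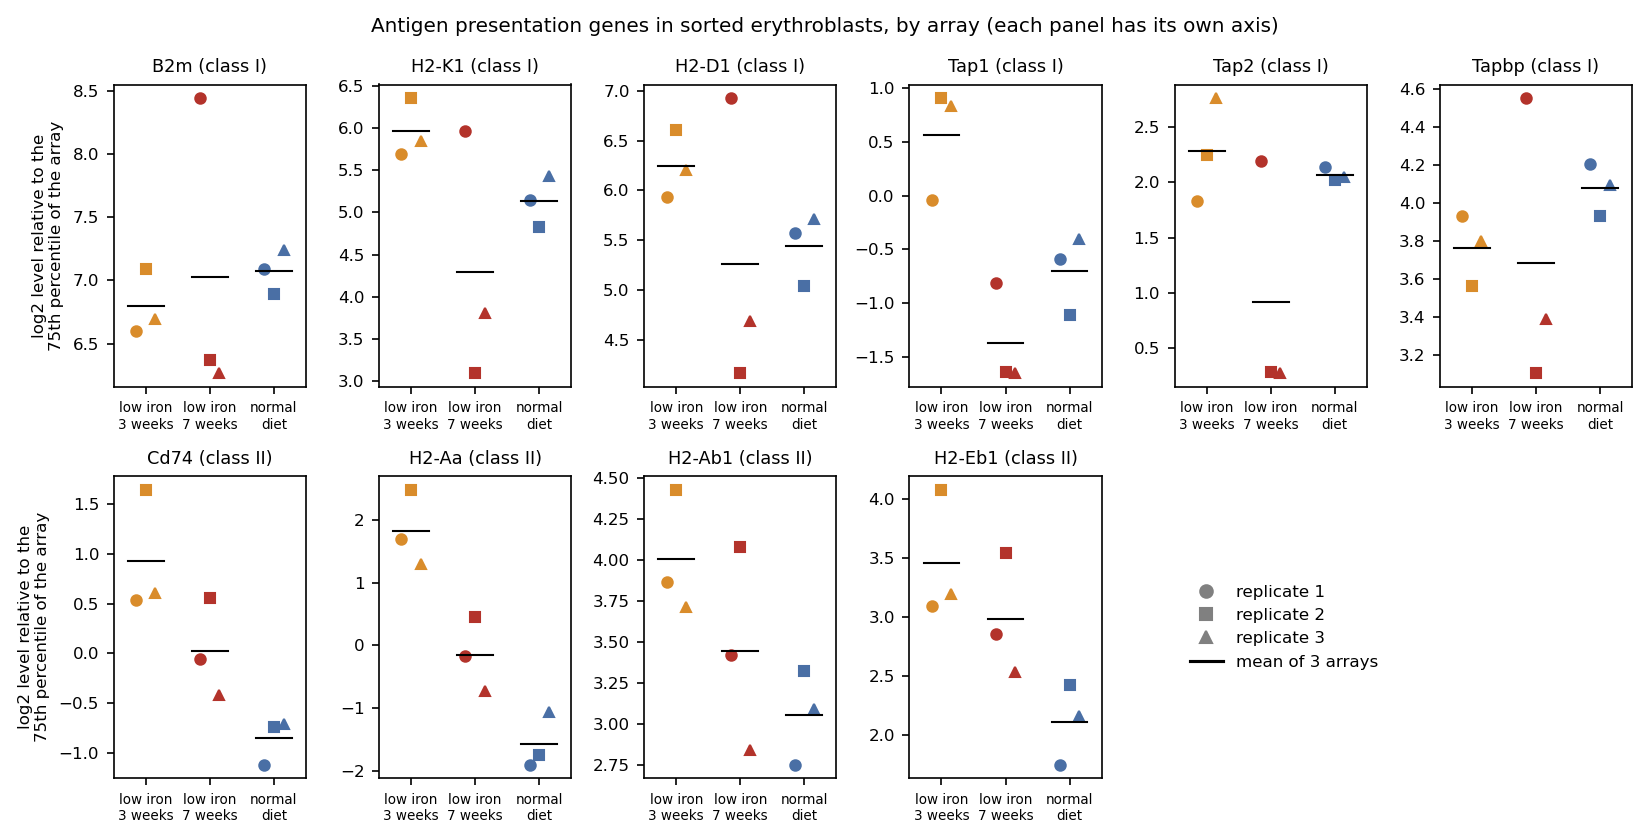
Level of each of the 10 genes (y axis, log2 intensity minus the 75th percentile of the array, with its own range in each panel) on the 3 arrays of each group, with bars at the group means and symbols for the replicate. The class II genes step down with the groups as drawn, while 7 week replicate 1 stands above 7 week replicates 2 and 3 in all 6 class I panels.

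B2m, the class I light chain, had levels of 6.60, 7.09 and 6.69 at 3 weeks, 8.44, 6.37 and 6.27 at 7 weeks and 7.09, 6.89 and 7.24 on normal diet. The groups overlapped, and 7 week replicate 1 was the highest of the 9 arrays. Its fold changes against normal diet were -0.28 ± 0.53 at 3 weeks (adjusted p = 0.76) and -0.05 ± 0.53 at 7 weeks (adjusted p = 0.954). The 3 week value was 0.44 with quantile normalization (adjusted p = 0.566), so its sign depends on the scaling. B2m was the brightest member in signal, at up to 35.3% of the scanner's saturation value.

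H2-K1, a classical class I heavy chain, had levels of 5.69, 6.35 and 5.84 at 3 weeks, 5.96, 3.10 and 3.81 at 7 weeks and 5.15, 4.82 and 5.43 on normal diet. The 3 week arrays lay above normal diet without overlap, and the 7 week arrays lay on both sides of it. Differences from normal diet of 0.83 ± 0.63 at 3 weeks (adjusted p = 0.416) and -0.84 ± 0.63 at 7 weeks (adjusted p = 0.333) did not pass. The other probe, printed in 10 spots, read 0.78 and -0.22. H2-D1, the other classical heavy chain of this strain, had levels of 5.93, 6.60 and 6.21 at 3 weeks, 6.92, 4.16 and 4.68 at 7 weeks and 5.57, 5.04 and 5.71 on normal diet, a pattern over the arrays like that of H2-K1. Its differences were 0.80 ± 0.63 (adjusted p = 0.427) and -0.18 ± 0.63 (adjusted p = 0.842). Class I heavy chains are close relatives in sequence, and whether a probe also reads a neighbour's transcript was not tested.

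Tap1, a subunit of the peptide transporter, had levels of -0.04, 0.91 and 0.83 at 3 weeks, -0.81, -1.64 and -1.65 at 7 weeks and -0.59, -1.11 and -0.40 on normal diet. All 3 week arrays were above normal diet and above 7 weeks, while 7 weeks and normal diet overlapped. Tap1 fell 3.82-fold at 7 weeks relative to 3 weeks (-1.93 ± 0.38, adjusted p = 0.00464). Against normal diet the 3 week difference was 1.27 ± 0.38 (adjusted p = 0.0597, and 0.0241 without 7 week replicate 1) and the 7 week difference was -0.67 ± 0.38 (adjusted p = 0.203).

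Tap2, the other subunit, had levels of 1.83, 2.25 and 2.76 at 3 weeks, 2.20, 0.28 and 0.27 at 7 weeks and 2.14, 2.02 and 2.05 on normal diet. Here 7 week replicates 2 and 3 were the lowest of the 9 arrays, and 7 week replicate 1 was close to normal diet. Its differences were 0.21 ± 0.51 at 3 weeks (adjusted p = 0.815), -1.15 ± 0.51 at 7 weeks (adjusted p = 0.115) and -1.36 ± 0.51 at 7 weeks relative to 3 weeks (adjusted p = 0.0621). Tapbp, or tapasin, had levels of 3.93, 3.56 and 3.80 at 3 weeks, 4.55, 3.10 and 3.39 at 7 weeks and 4.21, 3.93 and 4.10 on normal diet. Its 3 week arrays lay just below normal diet without overlap (-0.31 ± 0.38, adjusted p = 0.612), the only member to do so, and at 7 weeks the difference was -0.40 ± 0.38 (adjusted p = 0.444).

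Counted by group overlap, 3 of 6 class I genes lay wholly above normal diet at 3 weeks (H2-K1, H2-D1 and Tap1), and 1 lay wholly below (Tapbp). All 4 class II genes lay wholly above. Over all genes, 18.0% lay wholly above and 31.6% wholly below. Against the same controls 3 of 4 class II genes lay wholly above at 7 weeks (18.1% of all genes), and no class I gene was separate in either direction (29.4% of all genes lay wholly below). H2-Aa and Tap1 lay wholly below 3 weeks at 7 weeks (25.2% of all genes), and the other 8 members overlapped.

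The 7 week class I values rest on 1 array that differed from the other two. On 7 week replicate 1 all 6 class I genes were higher than the mean of replicates 2 and 3, by 0.83 (Tap1) to 2.51 (H2-K1), with a median gap of 2.02. The class II genes had gaps of -0.18 to -0.03, and the median over all tested genes was -0.01, with 18.9% of genes above 1. The H2-K1 gap was larger than that of 96.3% of genes, and the H2-D1 gap than that of 96.2%. Without that array 5 of the 6 class I genes fell at 7 weeks against normal diet, all but Tap1: H2-K1 at -1.68 (adjusted p = 0.00827), Tap2 at -1.79 (adjusted p = 0.00466), H2-D1 at -1.02 (adjusted p = 0.0414), Tapbp at -0.83 (adjusted p = 0.0314) and B2m at -0.76 (adjusted p = 0.0495). In that fit 23.2% of all tested genes fell. The class I median then stood at -0.98 against normal diet and at -1.91 against 3 weeks, where 4 of the 6 genes were lower than at 3 weeks (24.4% of all tested genes). Of the 9 arrays 7 week replicate 1 had the lowest share of spots well above background, 45.2%, and the lowest 75th percentile of intensity, 791.7. The part of these in its class I levels was not tested. Over all tested genes the 7 week arrays correlated with each other at 0.909 to 0.958, beside 0.976 to 0.980 among the 3 week arrays and 0.981 to 0.987 among the normal diet arrays.

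The 2 classes varied apart from each other from array to array. Over the 9 arrays the median Pearson correlation was 0.73 over the 15 pairs of class I genes, 0.94 over the 6 pairs of class II genes and 0.13 over the 24 pairs that join the classes. After each group's mean was removed the medians were 0.87, 0.91 and -0.07. Without 7 week replicate 1 the medians within groups were 0.25 for class I, 0.91 for class II and 0.00 across, over 8 arrays. The class I genes were thus less correlated within groups without that array, and the class II genes as correlated as with it. The points are arrays that share a slide within a group, and the values describe these 9 arrays.

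**Figure D3:**
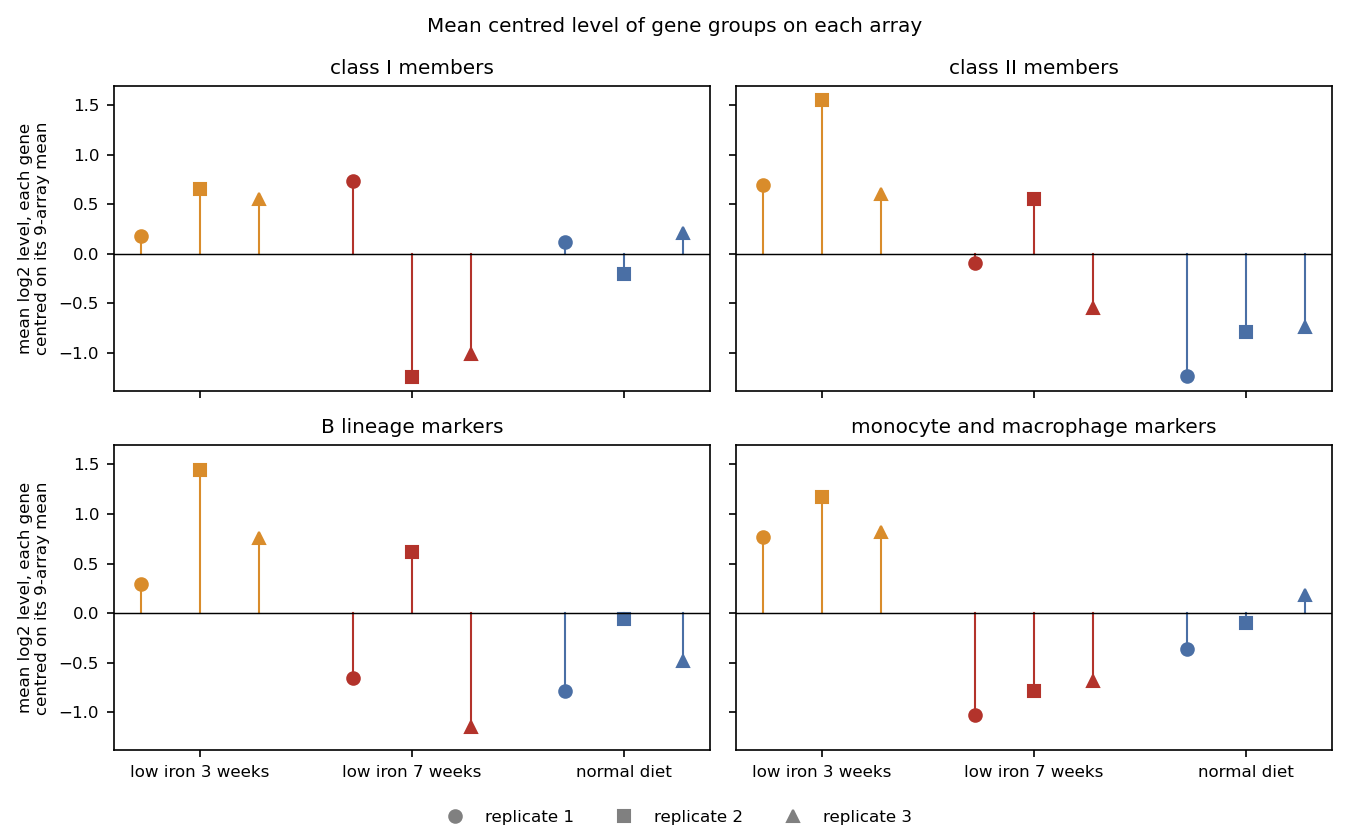
Mean log2 level on each array (y axis, each gene centred on its mean over the 9 arrays) of the class I members, the class II members, the B lineage markers and the monocyte and macrophage markers, with 3 arrays in each group (x axis) and symbols for the replicate. The class II, B lineage and monocyte panels share their highest array, 3 week replicate 2, and within 7 weeks the class II and B lineage panels are highest on replicate 2, whereas class I is highest there on replicate 1.

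Some markers of cells that normally carry class II were also higher at 3 weeks, and at 7 weeks the marker lists differed from each other. The rise at 3 weeks was not particular to these cells, since 2 of 11 tested neutrophil lineage markers rose too. In bulk samples fewer cells of a type and less RNA per cell cannot be told apart. Counts of called genes in this and the later lists stand beside the shares of all tested genes. Those shares were 3.52% higher and 7.88% lower at 3 weeks, and 10.7% and 18.7% at 7 weeks, against normal diet. Between 7 and 3 weeks they were 17.5% higher and 19.6% lower. Of 10 tested B lineage markers 2 rose at 3 weeks and none fell, with Ms4a1, which encodes CD20, among those that rose (1.45 ± 0.38, adjusted p = 0.0425). Their summed level, as multiples of the 75th percentile, was 15.2 to 29.5 at 3 weeks, 5.58 to 13.9 at 7 weeks and 8.27 to 11.7 on normal diet. The brightest gene of the list made up 29.5% to 54.3% of this sum, depending on the array. Well above background on all 3 arrays were 9 of the 10 at 3 weeks, 6 at 7 weeks and 10 on normal diet, and none was below background on all arrays of a group. At 7 weeks Cd79a rose (1.28 ± 0.38, adjusted p = 0.0332) and Ms4a1 fell (-1.26 ± 0.38, adjusted p = 0.0371) against normal diet. Cd79a did not pass without scaling between arrays (0.48, adjusted p = 0.279), nor Ms4a1 at 7 weeks with normexp background correction (-0.87, adjusted p = 0.0746) or at 3 weeks with quantile normalization (1.42, adjusted p = 0.0526).

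Of 12 monocyte and macrophage markers 3 rose at 3 weeks and none fell, namely Lyz2, Cd14 and C1qa at 3.59 ± 0.48, 1.92 ± 0.36 and 1.38 ± 0.34, the C1qa call being lost without scaling between arrays (adjusted p = 0.0541). Their summed level was 76.6 to 107.1 at 3 weeks, 27.4 to 30.1 at 7 weeks and 42.6 to 64.9 on normal diet, with 12, 11 and 12 of the 12 well above background on all 3 arrays. At 7 weeks 4 of the 12 were lower than on normal diet and none higher (C1qa among the 4, with adjusted p = 0.133 under quantile normalization and 0.0546 under normexp), and 8 were lower than at 3 weeks. This list's summed level was below normal diet on all 3 arrays at 7 weeks. Of 9 dendritic cell markers Itgax rose at 3 weeks (1.55 ± 0.36, adjusted p = 0.028, but 0.112 with normexp and 0.0821 with quantile normalization), and the list's median was 0.87, with 6 of 9 above 0. Siglech, a receptor of plasmacytoid dendritic cells, made up 93.6% to 98.1% of the list's summed level on every array, so the sum follows that probe: 88.8 to 111 at 3 weeks, 186 to 318 at 7 weeks and 178 to 203 on normal diet. Without Siglech the sum was 3.51 to 4.02 at 3 weeks, 4.37 to 11.8 at 7 weeks and 3.47 to 4.21 on normal diet. At 7 weeks against normal diet Zbtb46 rose (1.81 ± 0.40, adjusted p = 0.0116) and Tcf4 fell (-1.77 ± 0.53, adjusted p = 0.0342). Their other probes read -1.63 and 0.38, so both directions depend on the probe. The chosen Zbtb46 probe, with log2 levels of 1.70 to 3.16 at 7 weeks, enters the sum without Siglech. The other Siglech probe had a log2 difference of 0.24 at 3 weeks against normal diet, beside -0.97 for the chosen probe. At 7 weeks against normal diet it was -0.52, beside 0.23 for the chosen probe. Of the 9, 9, 5 and 8 were well above background on all 3 arrays of these groups, and Itgax and Clec9a were so on no 7 week array. The part of these cells in the class II values was not tested.

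The order of the replicates in class II levels was set beside that of the marker lists. The mean centred class II level was 0.69, 1.55 and 0.60 at 3 weeks, -0.09, 0.55 and -0.55 at 7 weeks and -1.23, -0.79 and -0.73 on normal diet. For the B lineage markers it was 0.30, 1.44 and 0.76 at 3 weeks, -0.66, 0.62 and -1.14 at 7 weeks and -0.78, -0.05 and -0.49 on normal diet. Replicate 2 was the highest array of its group in both series at 3 and at 7 weeks, which was also so for the neutrophil lineage markers (0.16, 1.37 and 0.75 at 3 weeks, -1.49, 0.37 and -0.45 at 7 weeks) and the dendritic cell markers. The monocyte and macrophage markers and the T and NK cell markers were likewise highest on replicate 2 at 3 weeks, so this likeness is not particular to the B lineage. On normal diet the B lineage markers were highest on replicate 2 and the class II genes on replicate 3.

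Among the 5 genes whose course over the 9 arrays was most like the mean of the 4 class II members were Sash3 (Pearson r = 0.978), Man2b1 (0.976), Klrd1 (0.965) and Tbc1d10c (0.954). Sash3 encodes a signalling adaptor of lymphocytes, Man2b1 the lysosomal alpha-mannosidase and Klrd1 the CD94 receptor chain of natural killer cells. The nearest to the class I mean were H2-T23 (0.980), Sdf4 (0.976), Anapc16 (0.972), H2-Q6 (0.971) and H2-T10 (0.970). Of these H2-T23, H2-Q6 and H2-T10 are nonclassical class I heavy chains, Sdf4 a calcium-binding protein of the Golgi and Anapc16 a subunit of the anaphase-promoting complex. For scale, 99.9% of tested genes had r below 0.924 with the class II mean and below 0.958 with the class I mean.

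The other class II genes gave a mixed picture. Of 10 tested chains and loading factors 2 rose at 3 weeks and none fell, with a median of 0.80, and 10 of 10 fold changes were above 0. H2-DMa, the alpha chain of the H2-M molecule that edits class II peptides, had a mean level of 0.86 ± 0.60 at 3 weeks, -1.20 ± 0.60 at 7 weeks and -1.48 ± 0.33 on normal diet (SD, n = 3 each). It rose at 3 weeks (2.33 ± 0.41, adjusted p = 0.0143), had a 7 week difference from normal diet of 0.27 ± 0.41 (adjusted p = 0.635), and fell at 7 weeks relative to 3 weeks (-2.06 ± 0.41, adjusted p = 0.00509). H2-DMb2, a beta chain of H2-M, was not well above background on any normal diet array. In the main processing it was at least 12.6-fold higher at 3 weeks (adjusted p = 0.012). The bound at 7 weeks was 4.34-fold higher (adjusted p = 0.0214, and 0.0585 without scaling), with 2 of 3 arrays above background. Each bound sets the mean of the low iron arrays against the lowest signal that counted as well above background on the normal diet arrays, or the probe's own signal where higher. Both bounds depend on the processing. With normexp background correction the fitted log2 differences were 2.31 at 3 weeks and 1.51 at 7 weeks, smaller than these bounds. Without scaling the 7 week value was 1.73, also smaller.

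At 7 weeks 2 of the 10 rose against normal diet, H2-DMb2 and Lgmn, a lysosomal protease that cuts antigens and the invariant chain (2.49 ± 0.50, adjusted p = 0.00875). Lgmn had levels of 2.79 to 3.67 at 3 weeks, 3.76 to 5.88 at 7 weeks and 2.25 to 2.54 on normal diet. The other class II genes at 3 weeks lay between 0.00 (Ifi30) and 1.48 (Marchf1) without passing. Ciita, the factor that switches on class II genes, did not pass in any comparison: 0.13 ± 0.50 at 3 weeks (adjusted p = 0.888), -0.24 ± 0.50 at 7 weeks (adjusted p = 0.738) and -0.37 ± 0.50 at 7 weeks relative to 3 weeks (adjusted p = 0.585). Its levels were -1.19 to -0.58 at 3 weeks, -2.27 to -0.60 at 7 weeks and -1.73 to -0.38 on normal diet, so the groups overlapped.

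**Figure D4:**
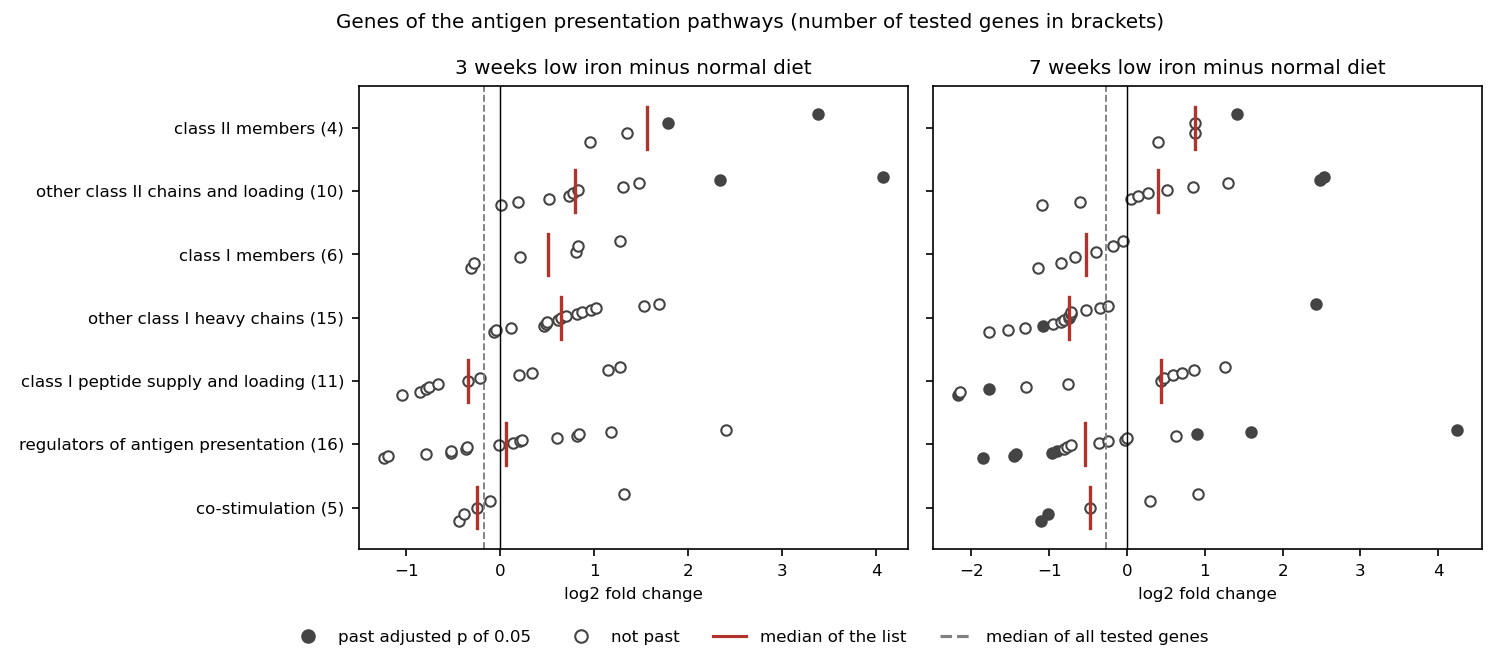
Log2 fold changes against normal diet (x axis) of the tested genes of 7 lists of the antigen presentation pathways (y axis, number of tested genes in brackets) at 3 and at 7 weeks; filled points passed an adjusted p of 0.05, the vertical bars are list medians and the dashed line is the median of all genes. The medians of the 2 class II lists lie above 0 at both times, and those of the class I members and other class I heavy chains lie above 0 at 3 weeks and below 0 at 7 weeks; the H2-DMb2 points, rightmost in its list, are fitted values against a group below background and are no measured fold.

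The other class I heavy chains had medians on the same sides of 0 as the class I members. None of 15 tested passed at 3 weeks, with 13 of 15 fold changes above 0 and a median of 0.64. H2-Q10, a secreted class I molecule best known from liver, and Fcgrt, the neonatal Fc receptor, had the largest values at 1.69 ± 0.81 (adjusted p = 0.2) and 1.53 ± 0.47 (adjusted p = 0.0669). After 7 weeks 14 of 15 fold changes against normal diet were below 0 (8522 of all 14504 tested genes). The list's median was -0.74 over the fitted values, in which Mr1 and H2-Q1 were not well above background at 7 weeks. There 1 gene rose, H2-M5 (2.43 ± 0.35, adjusted p = 0.00326), and 1 fell, H2-Q1 (-1.08 ± 0.28, adjusted p = 0.0211, a fitted value and no bound, which became 0.07 with normexp background correction). At 7 weeks relative to 3 weeks 5 of the 15 fell and 1 rose (H2-M5, 2.50 ± 0.35, adjusted p = 0.00122). H2-M5 was dim, with mean levels of -4.80 at 3 weeks and -4.74 on normal diet. Only 1 of the 3 week arrays was well above background for it. With normexp its rises were 1.61 against normal diet and 1.63 against 3 weeks. The fallers were H2-Q1 (not well above background on any 7 week array, with adjusted p = 0.0864 under quantile normalization and a value of 0.02 under normexp), H2-Q10 (-3.22 ± 0.81), H2-M3 (-1.81 ± 0.44), Fcgrt (-2.39 ± 0.47) and Hfe, a class I relative that regulates iron uptake (-1.24 ± 0.37). The other H2-Q10 probe read -0.74 in that comparison and 1.85 at 7 weeks against normal diet, where the chosen probe read -1.52.

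Genes that cut, trim and load class I peptides did not move as a block. None of 11 passed at 3 weeks. The largest values were those of Psmb8, a subunit of the immunoproteasome (1.27 ± 0.43, adjusted p = 0.088), and Tapbpl, the tapasin relative TAPBPR (1.14 ± 0.71, adjusted p = 0.311). Against normal diet 2 fell at 7 weeks, Lnpep, a peptidase of the endosome (-2.17 ± 0.46, adjusted p = 0.0102), and Pdia3, the ERp57 partner of tapasin (-1.78 ± 0.47, adjusted p = 0.0227). At 7 weeks relative to 3 weeks both also fell, while Psme1 and Psme2, the subunits of the PA28 proteasome activator, and the chaperone gene Calr rose (1.56 ± 0.31, 1.20 ± 0.31 and 1.64 ± 0.37). Without scaling between arrays none of these 3 rises passed (0.59, 0.24 and 0.67, adjusted p = 0.164, 0.535 and 0.17), and with quantile normalization Psme2 did not (0.32, adjusted p = 0.381). The other Psme2 probe read 0.18.

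Among 16 tested regulators none passed at 3 weeks, and at 7 weeks 3 rose and 5 fell against normal diet (10.7% and 18.7% of all genes). Ifngr2, a chain of the interferon gamma receptor, rose most (4.24 ± 0.71, adjusted p = 0.00489). Nlrc5, the transactivator of class I genes, rose by its chosen probe (0.90 ± 0.28, adjusted p = 0.0417), while its other probe read -1.03, so its direction depends on the probe. Its call was lost without scaling (0.09, adjusted p = 0.81) and with quantile normalization (0.80, adjusted p = 0.0528). The genes that fell were Rfxap of the X box complex, Nfyb and Nfyc of the Y box factor, Irf2 and Jak2, with values from -1.85 to -0.90, of which Nfyb and Nfyc did not pass with quantile normalization (adjusted p = 0.0986 and 0.107). Of 5 tested co-stimulation genes, which give T cells their further signal, none passed at 3 weeks, and Cd80 and Cd86 fell at 7 weeks (-1.02 ± 0.30 and -1.11 ± 0.31, adjusted p = 0.0336 and 0.0288).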

How the data were processed

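The members and gene lists were chosen with earlier results of these data known. Per the labels, total RNA of sorted erythroblasts was amplified and labelled with Cy3. The deposited scanner files hold spot intensity from Agilent Feature Extraction 10.7.3.1, background-subtracted within the array and not scaled between arrays, per the file headers. A deposited table of the 9 arrays gives log2 values, centred on each probe as the values show; how they were scaled between arrays is not given in the sources used here, and the table served as an alternative. Processed intensity was taken to log2, the array's 75th percentile subtracted and spots of a probe averaged, without spots flagged as outliers. No spot was saturated.

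RefSeq accessions without version named 26413 of 55681 probes through a GRCm38.p6 gene table. Tested genes had a probe well above background in every array of some group, and the brightest probe stood for the gene, which left 14504 genes; 984 probes without a usable spot on every array were left out. The 3 comparisons were contrasts of 1 two-sided limma 3.58.1 fit (R 4.3.3, lmFit and eBayes) over all 9 arrays, with an adjusted p threshold of 0.05, checked on simulated data. Where every array of a group was below background the fold is a bound. From lists other than the members, genes past the threshold, or else the 2 with the largest change, could be named, and Ciita, Ifi30 and Marchf1 were named besides; like genes are the 5 with the highest correlation with a class mean. A few genes that these rules name are counted but not reported by name here. Alternatives were other scalings, background correction, filters, probe rules, the deposited table, fewer arrays and a replicate block. The files hold no mean signal column, so the planned normexp correction (offset 50) used the median signal. The number of arrays, 3 in each group, limits the precision. Arrays of the same number correlated at -0.17 to 0.29 across groups in their deviations from the group means, and were not treated as pairs.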

Additional observations from a re-analysis of the deposited data

Results flagged for a closer look

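Both results stand out because the change differed between the diet times, by the contrast of 7 weeks with 3 weeks in the limma fit. Tap1 changed by -0.67 at 7 weeks and by 1.27 at 3 weeks against normal diet, a difference of -1.93 (adjusted p = 0.00464, between 0.000587 and 0.0225 over its 20 alternatives). H2-Aa changed by 1.42 at 7 weeks and by 3.38 at 3 weeks, a difference of -1.97 (adjusted p = 0.00709, between 0.000617 and 0.027 over its 20 alternatives). For both genes all 3 arrays at 7 weeks lay below all 3 arrays at 3 weeks. Markers of other cell types also differed between these times. Lower at 7 weeks were 8 of 12 monocyte and macrophage, 4 of 10 B lineage, 4 of 11 neutrophil lineage and 4 of 9 dendritic cell markers, and higher were 0, 1, 2 and 2 of them. Of all tested genes 19.6% were lower and 17.5% higher. Several dendritic cell calls depend on the processing or the probe. Itgax became 0.03 with normexp and Siglech -0.02 with quantile normalization, while Clec9a and Cd209a stayed lower with both. The chosen probes of Siglech, Zbtb46 and Tcf4 read 1.20, 2.95 and -1.60. Their other probes read -0.76, -1.88 and 0.58. The part of these cell types in the 2 results was not tested.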

How the results depend on the processing

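Tap1 and H2-Aa at 7 weeks against 3 weeks passed in all 20 alternatives, H2-Aa at 3 weeks in 19 of 20, Cd74 at 3 weeks in 14, H2-Aa at 7 weeks in 12, H2-Eb1 at 3 weeks in 9 and Tap1 at 3 weeks in 5. Called genes at 3 weeks numbered 1653 in the main result, 966 without scaling, 4416 with only the 2 groups compared and 0 against normal diet replicate 3 alone (1587 with an unadjusted p under 0.05), and 199 to 3503 when single arrays were left out. Called genes at 7 weeks against normal diet numbered 4277, against 6939 with no filter on dim probes, 7100 without scaling, 2819 with only the 2 groups, 1 against replicate 3 alone (3047 with an unadjusted p under 0.05) and 1739 to 5209 with single arrays left out. Between 7 and 3 weeks the count was 5390, and 3543 to 6488 with single arrays left out.

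Called class I members at 3 weeks numbered 1 (0 in the main result) with probes above background on all arrays, with the deposited table, with normexp and with only the 2 groups compared, and 0 to 1 with single arrays left out. Against normal diet at 7 weeks they numbered 4 without scaling, all lower, and 0 to 5 with single arrays left out. In that fit without scaling 6646 of 14504 genes were lower. For 7 against 3 weeks they numbered 5 without scaling, 3 with quantile normalization, 2 with the deposited table, normexp or probes above background on all arrays, and 1 to 4 with single arrays left out. These were lower too, beside 6804 of 14504 genes without scaling and 3212 with quantile normalization. Called class II members at 3 weeks numbered 4 with only the 2 groups compared (1627 of 14504 genes higher), 0 against replicate 3 alone and 1 to 3 with single arrays left out. Against normal diet at 7 weeks they numbered 0 without scaling, with quantile normalization, with only the 2 groups and against replicate 3 alone, and 0 to 1 with single arrays left out. For 7 against 3 weeks they numbered 4 without scaling, all lower where 6804 of 14504 genes were lower, and 1 to 2 with single arrays left out. Leaving out scaling lowers every 7 week value by about the fall in the 75th percentile; otherwise the cause was not tested.

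Among the 10 members signs turned only for values that did not pass in the main result. B2m became 0.44 at 3 weeks with quantile normalization, and -0.73 without scaling and -0.80 with quantile normalization at 7 weeks against 3 weeks. H2-Ab1 became -0.41 at 7 weeks without scaling. With single arrays left out B2m ranged from -0.76 to 0.33 at 7 weeks against normal diet and from -0.48 to 0.61 against 3 weeks, H2-D1 from -1.02 to 0.36 at 7 weeks, Tap2 from -0.029 to 0.44 at 3 weeks and Tapbp from -0.52 to 0.21 at 7 weeks against 3 weeks. The replicate block, with 8 of 18 array-to-group comparisons correlated best with their own number, gave 475 higher and 927 lower genes at 3 weeks and brought H2-Eb1 past the threshold (adjusted p = 0.0346). The slide as a block could not be fitted, since each slide held 1 group. With no filter on dim probes the split at 7 weeks against normal diet was 4178 higher and 2761 lower, beside 1558 and 2719, and against 3 weeks 4723 and 2818, beside 2545 and 2845. Without scaling the splits were 492 and 474 at 3 weeks, 454 and 6646 at 7 weeks against normal diet, and 826 and 6804 against 3 weeks; with quantile normalization they were 615 and 808, 1503 and 2458, and 2266 and 3212.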

Other observations

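Markers of further marrow cells were set beside the members. Of 11 tested neutrophil lineage markers 2 rose at 3 weeks, Mmp9 (3.52 ± 0.52, adjusted p = 0.00939) and Ngp (2.98 ± 0.50, adjusted p = 0.0134), and at 7 weeks against normal diet 1 rose, Elane (2.60 ± 0.42, adjusted p = 0.0043). Their summed level was 274 to 454 at 3 weeks, 352 to 563 at 7 weeks and 217 to 601 on normal diet. Of 11 tested T and NK cell markers none passed at 3 weeks, and Cd4 rose at 7 weeks by its chosen probe (1.68 ± 0.42, adjusted p = 0.0189), with another probe at -0.10, and did not pass without scaling between arrays (0.88, adjusted p = 0.0788).

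Among the 11 erythroid markers none passed at 3 weeks, while at 7 weeks against normal diet 3 rose and 1 fell (10.7% and 18.7% of all genes). Slc4a1 (band 3, 0.93 ± 0.26), Hbb-bt (a beta globin, 0.85 ± 0.25) and Alas2 (the first enzyme of heme synthesis in red cells, 0.84 ± 0.26) rose, but none of these 3 passed without scaling between arrays (0.13, 0.05 and 0.03) or with quantile normalization (0.06, 0.11 and -0.02, so the sign of Alas2 turned). The mean centred level of the 11 erythroid markers was 0.56, -0.43 and -0.11 on 7 week replicates 1, 2 and 3. On the 3 week arrays it was -0.01, -0.02 and -0.17, and on normal diet 0.11, -0.08 and 0.16. The 7 week array with the highest class I levels was thus also the highest of its group for these markers. That array was likewise highest for class I peptide supply and loading (0.46, -0.38 and -0.62), regulators (0.33, -0.43 and -0.26) and co-stimulation (0.40, -0.40 and -0.59). This likeness is therefore not particular to the erythroid markers.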
